A study of Homo sapiens with 17 samples.

Results

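The 10 mRNAs described here are commonly listed 5′ TOP mRNAs that do not encode ribosomal proteins: EEF1A1, EEF1B2, EEF1D, EEF1G, EEF2, PABPC1, TPT1, GNB2L1 (also called RACK1), NAP1L1 and NACA. They were chosen by gene symbol, and all 10 were found among the 9699 genes of the deposited table, each represented by 1 Ensembl transcript. RNA-Seq, which measures mRNA levels, and Ribo-Seq, which sequences the mRNA fragments protected by ribosomes, were applied in parallel to BJ cells, a human fibroblast line. Every group carried hTERT, the catalytic subunit of telomerase, which immortalizes the cells. The 5 conditions were proliferation in normal medium, quiescence after serum depletion, RASG12V induced with 1e-07 M 4-OHT-tamoxifen for 5 days (the pre-senescent state), the same induction for 14 days (the senescent state), and cells labelled as transformed. The last carried hTERT, a stable knockdown of p16INK4A and of another gene, SV40 small T and a constitutive retroviral RASG12V, so they differed from the inducible cells in several ways at once.

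Proliferating, quiescent and RAS day 5 cells formed run 1, and a second proliferating culture, RAS day 14 cells and the transformed cells formed run 2. The table held 12 columns made from 17 samples, 9 of RNA and 8 of ribosome footprints. In run 1 the 2 samples of a condition had been combined into 1 column, except for the single Ribo-Seq sample of RAS day 5, and in run 2 each column was 1 sample. With 1 column for each condition, assay and run there was no replicate error, and no difference below was tested. The gap between the proliferating columns of the 2 runs was the only repeat of a condition, and in it the culture and the run cannot be told apart. By the study's sample list, RNA of run 1 was sequenced paired-end and RNA of run 2 was not, so this layout differed with the run too. Values were FPKM, read counts scaled to the length of the transcript and to the total reads of the library, and the table does not give the number of reads behind each value. FPKM is relative to the whole library, so a change in total RNA or total ribosomes per cell would not be seen, and fewer cells with the mRNA cannot be told apart from less of it per cell.

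For the Ribo-Seq pair of run 2 the labels contradicted each other: the sample titled as senescent was described as proliferating and the reverse. Titles were followed. Across all genes, log2 values of the Ribo-Seq column titled senescent correlated with those of the RAS day 14 RNA column at 0.897 and with those of the run 2 proliferating RNA column at 0.780. The 9 measured proliferation markers were also low in it, at a median log2 change of -5.43, against -5.04 in RAS day 14 RNA. HRAS RNA was high throughout, from 1254 to 2415 FPKM in the 5 columns other than the transformed one and 312 FPKM in that one, and the oestrogen receptor gene ESR1 was at the floor of 1 FPKM only in the transformed RNA column. CDKN2A, the p16INK4A gene, went against its knockdown label at the RNA level, with 12.6 FPKM against 6.75 FPKM in proliferating cells of run 2, though not in Ribo-Seq, with 5.51 against 8.92 FPKM, so the last condition is called the library labelled transformed. All 10 fibroblast markers examined were above the floor in every RNA column, and their summed level ranged from 1114 FPKM in RAS day 5 to 4654 FPKM in proliferating cells of run 2.

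A 5′ TOP mRNA begins at its cap with a cytosine followed by an uninterrupted run of pyrimidines. The class comprises the mRNAs of nearly all ribosomal proteins and of several translation factors and associated proteins. When mTORC1 signalling falls, for instance after withdrawal of serum or amino acids, LARP1 binds the cap and the pyrimidine tract, 4E-BP proteins block the cap-binding factor eIF4E, and TOP mRNAs move out of polysomes while remaining stable. Of the 10 genes, 5 encode elongation factors. EEF1A1 delivers aminoacyl-tRNA to the ribosome. EEF1B2, EEF1D and EEF1G form the complex that reloads it with GTP, and EEF2 moves the ribosome along the mRNA. PABPC1 is the cytoplasmic poly(A)-binding protein. GNB2L1 is a scaffold on the small ribosomal subunit, and NACA is the alpha subunit of the nascent polypeptide-associated complex at the ribosome exit tunnel. TPT1 is an abundant growth-associated protein, and NAP1L1 is a histone chaperone.

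The first bases of these mRNAs are shown because they define the class. Promoter sequences from RefSeq on GRCh38.p14 matched 8 of the 10 genes. Each line gives 10 bases before the annotated start and 20 from it, read 5′ to 3′ along the transcribed strand, and capitals mark a tract of at least 5 bases that opens with C at the annotated start and continues only with C or T.
EEF1A1: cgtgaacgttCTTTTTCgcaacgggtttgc
EEF1B2: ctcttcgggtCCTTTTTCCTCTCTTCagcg
EEF1G: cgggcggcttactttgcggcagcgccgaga
EEF2: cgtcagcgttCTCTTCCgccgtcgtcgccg
TPT1: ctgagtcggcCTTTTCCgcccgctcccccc
GNB2L1: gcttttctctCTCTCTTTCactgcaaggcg
NAP1L1: gctcttgggtCTTTTTTagcgccatctgct
NACA: ctcgctcggtCTTTCTgccgccatcttggt

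EEF1A1 lies on the minus strand at chr6:73521013-73521042, EEF1B2 on the plus strand at chr2:206159885-206159914, and EEF1G on the minus strand at chr11:62573872-62573901. EEF2 is at chr19:3985444-3985473, TPT1 at chr13:45341164-45341193, GNB2L1 at chr5:181243887-181243916, NAP1L1 at chr12:76084666-76084695 and NACA at chr12:56725280-56725309, all on the minus strand. Each window spans the annotated start of the gene, so its last 20 bases are the beginning of the 5′ UTR. A tract at the start was found in 7 of the 8 genes, with lengths from 6 bases in NACA to 16 bases in EEF1B2, whose other annotated start had none. EEF1G had no tract at its annotated start, and a 12-base pyrimidine run lay in the 30 bases that followed the window, at chr11:62573842-62573871.
EEF1G, next 30 bases: accccaCCCCCTTTCTTTgcggaatcacca

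For comparison, the same search found a tract at the start in 47 of 63 matched ribosomal protein genes, which is 74.6%, and in 584 of 7991 other genes of the table, which is 7.31%. A ribosomal protein gene and GAPDH, a glycolytic enzyme gene whose mRNA is not of this class, show the contrast.
RPS6: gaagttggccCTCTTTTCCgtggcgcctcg
GAPDH: gtgcatccctgtccggatgctgcgcctgcg

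RPS6 is at chr9:19380217-19380246 on the minus strand and GAPDH at chr12:6535254-6535283 on the plus strand. A match describes the letters at an annotated start and not the cap site used in these cells. EEF1D and PABPC1 are not in the promoter table used.

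The 10 mRNAs covered a wide range of levels but kept nearly the same order in every library. The 6 values in a row are given for proliferating cells of run 1, quiescent cells and RAS day 5, then for proliferating cells of run 2, RAS day 14 and the library labelled transformed. EEF1A1 (ENST00000316292) was the most abundant, with RNA at 3018, 4227, 3031, 2848, 2721 and 2252 FPKM. It ranked between 3 and 8 among all genes in RNA and between 4 and 7 in Ribo-Seq. On its own EEF1A1 made up 38.3% to 47.2% of the summed RNA of the 10 mRNAs and 56.1% to 62.0% of their summed Ribo-Seq value. TPT1 (ENST00000309246) followed with a median RNA of 1095 FPKM over the 6 libraries, then EEF2 (ENST00000309311) with 954 FPKM and GNB2L1 (ENST00000512805) with 885 FPKM. These neighbours overlapped in range and changed places between runs. EEF1G (ENST00000378019) had a median of 455 FPKM and EEF1B2 (ENST00000392222) 338 FPKM, again with overlapping ranges. PABPC1 (ENST00000318607), at 219 FPKM, EEF1D (ENST00000532741), at 141 FPKM, and NAP1L1 (ENST00000261182), at 89.3 FPKM, came next. The lowest PABPC1 value was 167.0 FPKM and the highest EEF1D value 166.0 FPKM, while EEF1D and NAP1L1 overlapped slightly. NACA (ENST00000454682) was the lowest at 40.6 FPKM and did not overlap with any other. NACA and EEF1D have long annotated isoforms besides their common ones, and the transcript with the longest coding sequence stood for each gene. Their levels per length may therefore be understated, which was not tested.

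**Figure D1:**
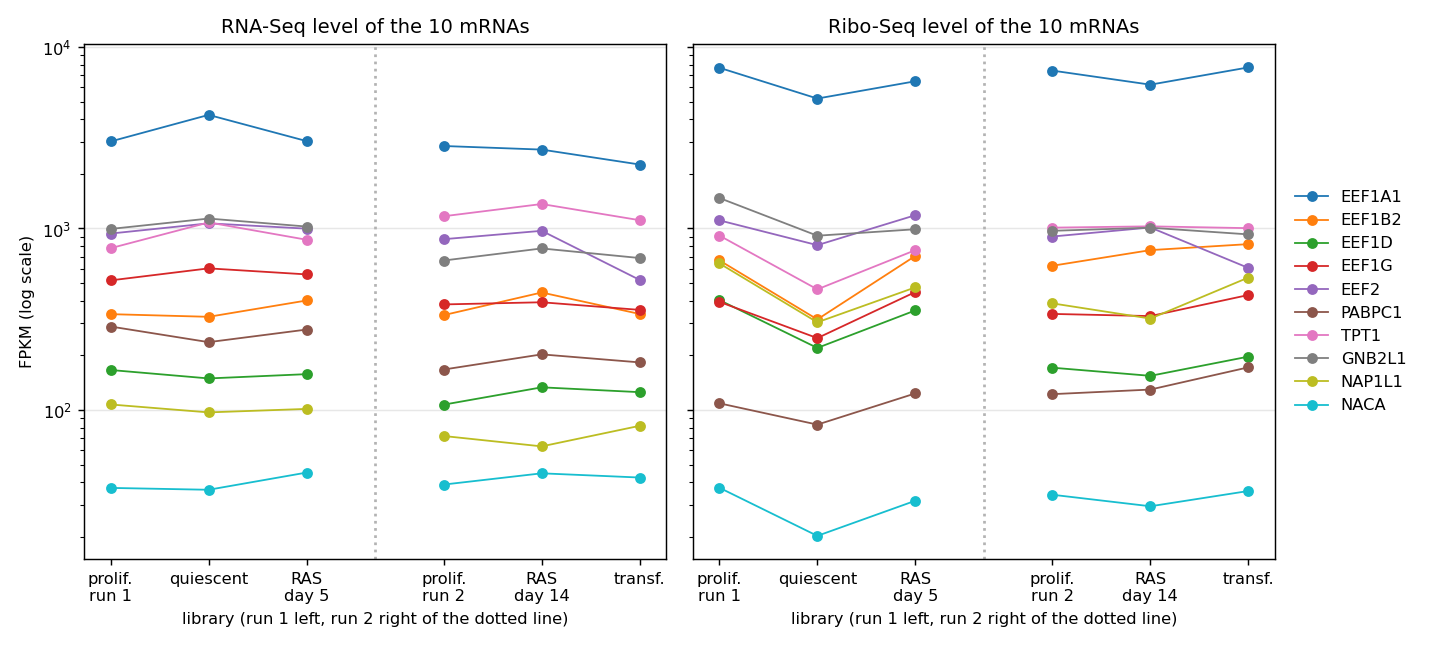
RNA-Seq (left panel) and Ribo-Seq (right panel) levels of the 10 mRNAs in FPKM on a log axis, with 1 point per library and lines joining libraries of the same run. In run 1 every Ribo-Seq line dips at quiescence, while no RNA line moves by 1.5-fold there, and EEF1A1 lies above all others in both panels.

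Translation efficiency (TE) was calculated as the log2 ratio of the Ribo-Seq to the RNA FPKM. NAP1L1 had the highest TE of the 10, with a median of 2.38 over the libraries, and it exceeded 93.0% to 98.5% of all genes depending on the library. EEF1A1 had a median TE of 1.27, EEF1B2 0.86, EEF1D 0.66, GNB2L1 0.41 and EEF2 0.14. TPT1 had a median TE of -0.20, EEF1G -0.29, NACA -0.38 and PABPC1 -0.91. The measured TE thus differed between members of the EEF1 complex, although they work together. RNA was counted over the whole transcript and Ribo-Seq over the coding sequence, so TE may also depend on the transcript chosen for a gene. The size of this effect was not tested. EEF1A1 exceeded EEF1G by 5.43-fold to 7.47-fold in RNA and by 14.5-fold to 21.9-fold in Ribo-Seq. EEF1A1 exceeded EEF1B2 by 6.13-fold to 13.0-fold in RNA and by 8.16-fold to 16.5-fold in Ribo-Seq, with the highest ratio in quiescent cells on both measures.

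Quiescence brought the largest shift. The mRNA levels changed little, whereas the ribosome footprints of all 10 mRNAs were lower. The median log2 change of the 10 against proliferating cells of run 1 was 0.08 in RNA, -0.78 in Ribo-Seq and -0.88 in TE. The median TE change of all 9699 genes was -0.05. None of the 10 changed by 1.5-fold in RNA, which 19.4% of all genes did. In Ribo-Seq all 10 were lower, as 52.9% of all genes were, 7 were lower by 1.5-fold, against 22.1% of all genes, and 2 were lower by 2-fold (EEF1B2 and NAP1L1), against 8.02%. In TE all 10 were lower, against 54.3% of all genes, 9 were lower by 1.5-fold, against 13.8%, and 3 were lower by 2-fold (EEF1A1, EEF1B2 and TPT1), against 4.17%. With every library rescaled to the same summed FPKM, which shifted the median TE change of all genes to 0.15, 9 were lower in TE and 1 by 2-fold, against 37.5% and 2.42% of all genes.

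TPT1 showed the largest difference. Its RNA was 778.9, 1080 and 867 FPKM in run 1 and 1168, 1364 and 1111 FPKM in run 2, and its Ribo-Seq level was 914, 462, 760, 1011, 1028 and 1004 FPKM. Quiescent cells thus had the lowest footprint level of the 6 libraries and an RNA level within the range of the others. The TE change was -1.46, which is 0.364-fold, and 1.17% of all genes changed further down. EEF1A1 had its highest RNA level in quiescence, 4227 FPKM, and its lowest Ribo-Seq level, with values of 7688, 5202, 6478, 7415, 6203 and 7722 FPKM. The log2 change of EEF1A1 was 0.49 in RNA, -0.56 in Ribo-Seq and -1.05 in TE. For EEF1B2 the RNA stayed at 337, 326.0, 401, 333, 444 and 338 FPKM, while Ribo-Seq values were 667, 316, 706, 623, 760.0 and 820.0 FPKM. Its Ribo-Seq level in quiescence was less than all others, at a log2 change of -1.08, and the TE change was -1.03.

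EEF1G resembled its partners, with RNA at 518, 603, 558, 381, 392.1 and 356 FPKM and Ribo-Seq at 394, 249, 446, 338, 329 and 430.0 FPKM. Its TE change in quiescence was -0.88, although EEF1G was the gene with no tract at its annotated start. EEF2 had RNA at 938, 1068, 998, 873, 971 and 521 FPKM and Ribo-Seq at 1109, 809, 1184, 903, 1013 and 606 FPKM. The TE of EEF2 was lowest in quiescence, at a change of -0.64, but its lowest Ribo-Seq and RNA levels were in the library labelled transformed. GNB2L1 had RNA at 994, 1134, 1025, 666, 776 and 687 FPKM and Ribo-Seq at 1473, 912, 990.4, 971, 1010 and 928 FPKM. Its TE change in quiescence was -0.88, and the quiescent Ribo-Seq level lay only slightly beneath those of run 2.

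NAP1L1 had RNA at 107, 96.9, 101, 71.8, 63.0 and 81.8 FPKM and Ribo-Seq at 642, 304, 474, 387, 319 and 537 FPKM. The high TE of NAP1L1 in proliferating cells of run 1, 2.58, was 1.65 in quiescence, a change of -0.93. NACA had RNA at 37.2, 36.3, 45.2, 38.8, 44.7 and 42.4 FPKM and Ribo-Seq at 37.3, 20.2, 31.6, 34.1, 29.4 and 35.8 FPKM. The TE change of NACA was -0.85, with the quiescent footprint level beneath all others. EEF1D had RNA at 166.0, 149, 157, 107, 133 and 125 FPKM and Ribo-Seq at 403, 219.7, 354, 171, 154 and 197 FPKM. Its TE change in quiescence was -0.72, but the Ribo-Seq level was lower still in all 3 libraries of run 2.

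PABPC1 was the exception against the proliferating column of its own run. It had RNA at 288, 236, 277, 167, 202 and 183 FPKM and Ribo-Seq at 109, 83.0, 123, 122, 130 and 172 FPKM. Its RNA and footprints were both lower in quiescence, by similar amounts, so that the TE change was -0.10. This lay near the middle of all genes, with 45.4% below it. Against the proliferating column of run 2, however, PABPC1 RNA was higher in quiescence, by 0.50, and its TE change was -1.06, within the range of the other members. With that column EEF1D was the least changed instead, at -0.12, and EEF1G the most, at -1.10, with TPT1 at -1.02.

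The size of these differences can be set against the gap between the 2 proliferating columns, which is the difference between cultures of the same condition in different runs. The TE change in quiescence was larger than this gap, and downward, for 9 of the 10 mRNAs, against 28.1% of all genes. Both values were taken from the same run 1 proliferating column. For EEF1A1 the gap was 0.03, for GNB2L1 0.02 and for EEF1B2 0.08. It was 0.44 for TPT1 and 0.60 for EEF1D, and for PABPC1 it was 0.95, more than any change of that mRNA with condition. A gap of 1.5-fold or more in either direction was found for PABPC1 and EEF1D, and for 27.9% of all genes. Quiescence was the library with the lowest TE for 9 of the 10, against 14.3% of all genes, and the exception was EEF1D, lowest at RAS day 14.

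**Figure D2:**
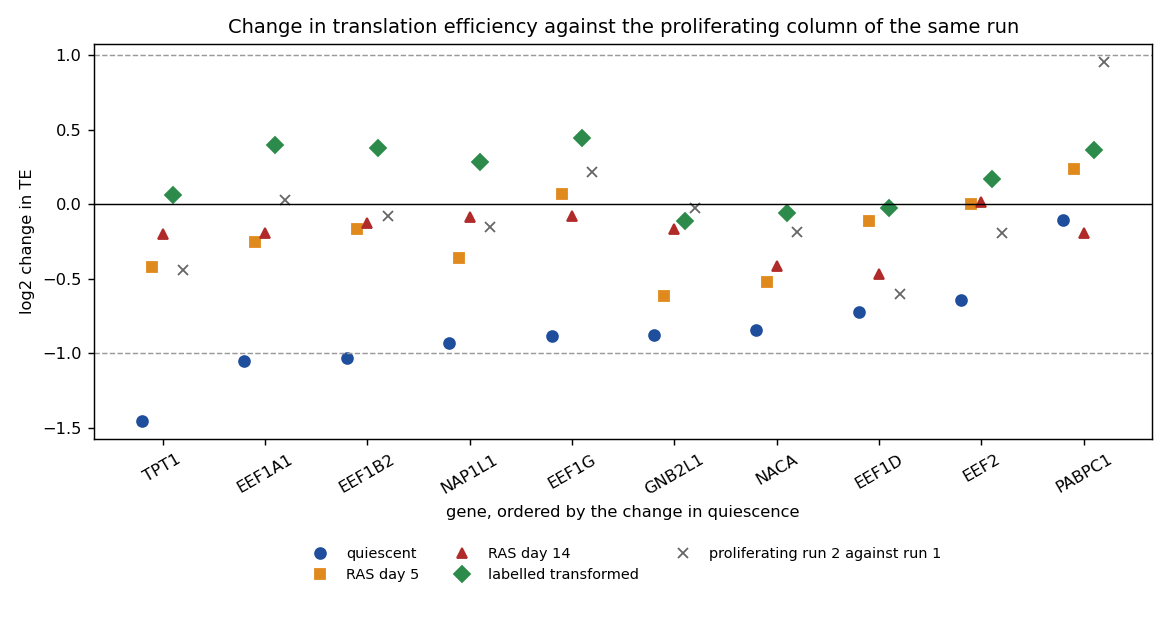
log2 change in TE of each mRNA against the proliferating column of its own run (symbols by condition) and the difference between the 2 proliferating columns (crosses), with dashed lines at 2-fold. Quiescence is the lowest symbol in 9 of the 10 genes and reaches -1.46 for TPT1, and the cross of PABPC1 lies at 0.95.

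RASG12V for 5 days gave smaller differences. The median change of the 10 was 0.07 in RNA, -0.21 in Ribo-Seq and -0.21 in TE, where the median of all genes was itself shifted, to -0.10 in Ribo-Seq and -0.13 in TE. None changed by 1.5-fold in RNA, against 12.3% of all genes. The TE was lower for 7 of the 10, against 57.3% of all genes, and by 1.5-fold for GNB2L1 alone, against 22.5%. This direction depended on the scale. With libraries rescaled to the same sum, 4 of the 10 were lower, against 41.7% of all genes. The median TE change was then 0.05, against 0.13 for all genes. GNB2L1 had a TE change of -0.62 with RNA nearly level (0.04) and a Ribo-Seq change of -0.57. NACA followed at -0.52, TPT1 at -0.42 and NAP1L1 at -0.36. EEF1G, at 0.07, EEF2, at 0.00, and PABPC1, at 0.24, were not lower. The change exceeded the gap between proliferating columns for 5 of the 10, and for 57.8% of all genes.

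After 14 days of RASG12V the 10 mRNAs were near their proliferating levels. Their median change was 0.21 in RNA, -0.01 in Ribo-Seq, where all genes had a median of -0.10, and -0.18 in TE. No member changed by 1.5-fold in RNA or in Ribo-Seq, although 40.8% and 49.7% of all genes did so. TE was lower for 9 of the 10, all but EEF2, against 51.8% of all genes, and for none by 1.5-fold, against 17.6%. After rescaling to the same sum 5 of the 10 were lower, against 39.0% of all genes. The median TE change was then 0.01, against 0.16 for all genes. EEF1D had the largest TE change, -0.47, and NACA was next at -0.42, and the other TE changes lay between -0.20 and 0.01. For 4 of the 10 the change was larger than the gap between proliferating columns, as for 52.6% of all genes. With the Ribo-Seq pair of run 2 assigned by its descriptions instead of its titles, the median became 0.01 in Ribo-Seq and -0.21 in TE. The exchange reverses the sign of every Ribo-Seq change here by construction. It was not carried into the comparisons with the library labelled transformed.

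In the library labelled transformed the footprints of 7 of the 10 were higher than in proliferating cells, as were those of 50.3% of all genes, and those of TPT1, GNB2L1 and EEF2 differed by -0.01, -0.07 and -0.57 on the log2 scale. The median change was 0.03 in RNA, 0.14 in Ribo-Seq and 0.23 in TE, against -0.07 for the TE of all genes. TE was higher for 7 of the 10, against 42.4% of all genes, and by 1.5-fold for none, against 5.17%. Against the proliferating column of run 1 the median was -0.41 in RNA, -0.03 in Ribo-Seq and 0.05 in TE. With that column TE was lower for 5 of the 10, against 51.7% of all genes, whose median TE change was -0.02. The largest TE changes were 0.45 for EEF1G, 0.40 for EEF1A1, 0.37 for EEF1B2 and 0.36 for PABPC1. TPT1, GNB2L1, NACA and EEF1D lay between -0.11 and 0.06. EEF2 was the only member with a 1.5-fold change in RNA, which 24.6% of all genes showed. Its log2 change was -0.75 in RNA, 0.596-fold, and its TE change was 0.17. No member reached 1.5-fold in Ribo-Seq, against 29.1% of all genes. The TE change exceeded the gap between the proliferating columns for 5 of the 10, against 40.6% of all genes.

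RAS day 14 and the library labelled transformed were of the same run, both with RASG12V, and could be set against each other directly. TE was lower at RAS day 14 for all 10, which 47.0% of all genes also showed, and by 1.5-fold for EEF1A1 alone, against 11.6%. The median difference was -0.41, and for all genes it was 0.03. The differences ranged from -0.59 in EEF1A1 to -0.05 in GNB2L1. EEF1B2, EEF1G and PABPC1 lay at -0.50, -0.53 and -0.55.

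**Figure D3:**
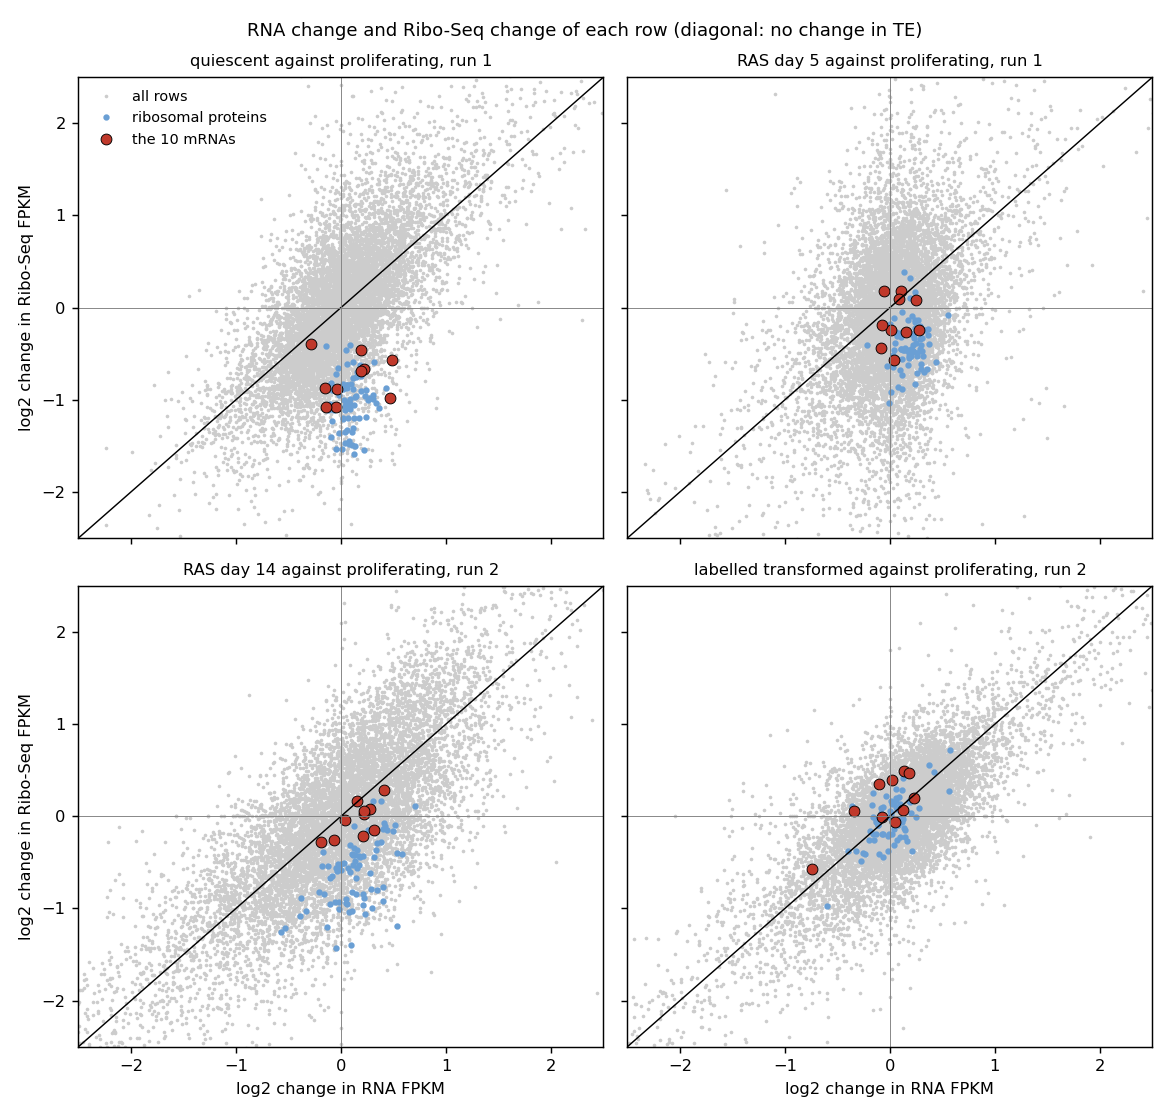
log2 change in Ribo-Seq against log2 change in RNA, each against the proliferating column of the same run, for all genes (grey), ribosomal proteins (blue) and the 10 mRNAs (red). Points on the diagonal have no change in TE, and genes beyond the axes are not drawn. In quiescence the red points lie under the diagonal at RNA changes from -0.29 to 0.49, at day 14 they lie near it, with medians of 0.21 and -0.01, and in the transformed panel EEF2 stands apart at an RNA change of -0.75.

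Ribosomal proteins, the main body of TOP mRNAs, were the closest class for comparison, and 78 of the 80 listed were in the table. Their median TE change was -1.11 in quiescence, -0.61 at RAS day 5, -0.65 at RAS day 14 and -0.03 in the library labelled transformed. The 10 non-ribosomal mRNAs had -0.88, -0.21, -0.18 and 0.23 in the same order. In quiescence all 78 ribosomal proteins were lower in TE, 50 of them by 2-fold, against 54.3% and 4.17% of all genes. Their range from -1.77 for RPS3A to -0.28 for RPS15 contained 9 of the 10 mRNAs, PABPC1 being above it. At RAS day 14 all 78 were again lower, 16 of them by 2-fold, against 51.8% and 6.08% of all genes. Their changes ranged from -1.72 for RPS28 to -0.14 for RPS24. The values of the 10 at that time, from -0.47 to 0.01, overlapped only with the upper part of this range. The difference between the classes was not tested. As a share of the summed FPKM of a library, ribosomal proteins took 14.1% of the Ribo-Seq value in proliferating cells of run 1, 8.19% in quiescence and 11.9% at RAS day 5. In run 2 the shares were 14.8% in proliferating cells, 9.08% at RAS day 14 and 14.7% in the library labelled transformed. The 10 mRNAs took 1.80%, 1.32% and 1.76% of the Ribo-Seq value in run 1 and 1.53%, 1.44% and 1.66% in run 2, and their share of RNA was highest in quiescence, at 2.33%.

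Among 13 other mRNAs reported to begin with a TOP or a TOP-like sequence, the median TE change in quiescence was -0.42. All 13 were lower, 3 of them by 2-fold, against 54.3% and 4.17% of all genes. They ranged from -1.23 for the initiation factor EIF4B to -0.03 for the intermediate filament gene VIM. Their medians were -0.45 at RAS day 5, -0.15 at RAS day 14 and 0.07 in the library labelled transformed. The other elongation and termination factors, 12 in number, had a median of -0.25 in quiescence with none lower by 2-fold, against 4.17% of all genes. The lowest of them was the release factor ETF1, at -0.91, and the highest the eEF2 kinase EEF2K, at 0.38. They were at -0.64 at RAS day 5, 0.09 at RAS day 14 and -0.06 in the library labelled transformed. At RAS day 14 the elongation factor EIF5A had the largest TE change of these 12, -1.45, whereas the elongation factors among the 10 mRNAs lay between -0.47 and 0.01.

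Of 19 listed paralogs and partners of the 10 proteins, 15 were in the table, and their median TE change was -0.06 in quiescence, -0.24 at RAS day 5, -0.33 at RAS day 14 and -0.14 in the library labelled transformed. The binding partner of NACA, BTF3, is itself among the reported TOP mRNAs. BTF3 had RNA at 286, 262 and 325 FPKM and Ribo-Seq at 981, 566 and 661 FPKM in run 1, with a TE change of -0.67 in quiescence, and its relative BTF3L4 changed by -0.96. PABPC4, a cytoplasmic relative of PABPC1, had a TE change of -0.02 in quiescence, with RNA at 143 and 94.0 FPKM in proliferating and quiescent cells. NAP1L4 changed by -0.05, against -0.93 for NAP1L1, and GNB1 and GNB2, G protein beta subunits that share the repeat fold of GNB2L1, by 0.27 and -0.02. EEF1A2, the tissue-restricted counterpart of EEF1A1, had RNA of 25.02 FPKM in proliferating cells of run 2 and 107 FPKM at RAS day 14, a log2 change of 2.10, while EEF1A1 changed by -0.07. Only uniquely mapped reads were counted. Reads from any stretch that EEF1A1 or NACA shares with a related gene, such as EEF1A2 or NACA2, may therefore be lost or misplaced. The size of this effect is not known. NACA2 had 45.5 FPKM in RNA and 7.57 FPKM in Ribo-Seq in proliferating cells of run 1.

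The 20 genes listed as regulators of TOP mRNAs or members of the mTOR pathway had a median TE change of 0.08 in quiescence, -0.26 at RAS day 5, 0.03 at RAS day 14 and -0.14 in the library labelled transformed. LARP1 RNA was 112 and 80.7 FPKM in proliferating and quiescent cells of run 1. The median RNA change of the 20 genes in quiescence was -0.07. In RNA 2 of the 20 were higher there by 1.5-fold, a share close to that of all genes, 1037 of 9699. These 2 were DDIT4 and SESN2, inhibitors of mTORC1 signalling. Their RNA was 29.6 and 14.6 FPKM in proliferating cells and 69.1 and 27.4 FPKM in quiescent cells. The log2 changes were 1.22 and 0.91. SESN1, TSC1 and TSC2, also listed, changed in RNA by 0.41, 0.26 and -0.23 in quiescence. At RAS day 14 these 3 changed by 0.02, 0.24 and 0.16. SESN2 RNA was also higher at RAS day 14, at 16.7 against 8.24 FPKM, and was 6.82 FPKM in the library labelled transformed. DDIT4 RNA was 8.99 FPKM in proliferating cells of run 2, 9.94 FPKM at RAS day 14 and 17.0 FPKM in the library labelled transformed.

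The genes whose 4 TE changes were nearest to the median of the 10 were sought among the 5254 genes with a mean of at least 10 FPKM in both assays. The 10 nearest by Euclidean distance of log2 values were MITD1, LZIC, EIF2D, EIF3L, DAP3, INPP1, MRPL1, FGFR1OP2, CXorf26 and PIP4K2A, at distances from 0.183 to 0.310. None was a ribosomal protein of the cytosol. EIF3L, a subunit of the initiation factor eIF3, had TE changes of -1.08, -0.05, -0.07 and 0.20 in quiescence, RAS day 5, RAS day 14 and the library labelled transformed. By the same measure NAP1L1, EEF1B2 and EEF1A1 were the members nearest to the median, at 0.188, 0.219 and 0.242. PABPC1 was the farthest, at 0.908, with 1237 other genes nearer than it. The likeness rests on 4 differences between single columns, which share 2 proliferating columns.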

How the data were processed

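RNA-Seq and Ribo-Seq libraries of BJ cells were sequenced by the authors as 50-nucleotide reads and aligned with Bowtie (version not given in the sources used here) to protein-coding transcripts of Ensembl release 65, 1 per gene, with hg19 named in the submitters' processing notes. Ribosomes were halted with cycloheximide, and footprints were released with RNase I. The authors deposited FPKM values from uniquely mapped reads, counted over the whole transcript for RNA and over the coding sequence for Ribo-Seq, with values under 1 FPKM set to 1. Cultures of run 1 were combined before deposit. All 12 columns were used, 0 were unmatched, and read counts per gene were not recovered, so the counting error of each value is unknown. Read totals that the study states per library were not used here.

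Log2 ratios of the deposited FPKM were taken in Python 3.11.15 with pandas 2.3.3 and numpy 2.4.6 against the proliferating column of the same run, without centring or pseudocount, as in the study's design. Thresholds were 2-fold and 1.5-fold. The functions were tested on simulated data. Members and gene lists were chosen with earlier results of these data known. Every member was named, lists were given by counts, medians, extremes and partners of members, and the 10 nearest genes were ranked by distance. Pyrimidine tracts were searched on the transcribed strand from RefSeq starts on GRCh38.p14, and 8062 of 9699 genes matched by symbol. Alternatives were centring, a pseudocount of 1, rescaling, the other run's control, other thresholds, a minimum of 10 FPKM, leaving out NACA and EEF1D, and assigning the run 2 Ribo-Seq pair by description. The other knocked-down gene of the transformed cells is not reported here.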

Additional observations from a re-analysis of the deposited data

Results flagged for a closer look

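The values given here stood out because the changes of a member had opposite signs in the conditions compared, with a gap of at least 1.5-fold. In several of them 1 of the changes was small, such as 0.00 for EEF2 TE at RAS day 5, and only its sign met the rule. The pairs compared were quiescence with RAS day 5, RAS day 14 with the library labelled transformed, and RAS day 5 with RAS day 14. Each value rests on 1 column a condition, and none of these differences was tested. EEF1B2 Ribo-Seq changed by -1.08 in quiescence and by 0.08 at RAS day 5, a difference of -1.16 on the log2 scale. EEF1G Ribo-Seq changed by -0.66 and 0.18 in the same libraries, a difference of -0.84, and its TE by -0.88 and 0.07, a difference of -0.95. EEF2 TE changed by -0.64 and 0.00, a difference of -0.65. EEF2 RNA changed by 0.15 at RAS day 14 and by -0.75 in the library labelled transformed, a difference of 0.90, and EEF2 Ribo-Seq by 0.17 and -0.57, a difference of 0.74. NAP1L1 Ribo-Seq changed by -0.28 and 0.47 in these libraries, a difference of -0.75. EEF1A1 TE changed by -0.19 and 0.40, a difference of -0.59. GNB2L1 Ribo-Seq changed by -0.57 at RAS day 5 and by 0.06 at RAS day 14, a difference of -0.63, and these libraries were of different runs with different controls. No group held enough columns to look for an outlying sample.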

How the results depend on the processing

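No paired analysis was possible because each condition had 1 column per assay and run, and for the same reason no replicate could be left out. In quiescence the TE median of the 10 mRNAs kept its direction and stayed within 1.5 times its value of -0.88 under every alternative, from -0.68 with libraries rescaled to a common sum to -0.91 without NACA and EEF1D. Most other medians were small, and of 62 values under the alternatives 14 changed sign and 12 more moved by over 1.5 times; the causes were not tested. With the other run's control the medians in quiescence were 0.46 in RNA and -0.48 in Ribo-Seq, at RAS day 5 0.38 and 0.10, at RAS day 14 -0.23 and -0.29, and in the library labelled transformed -0.41 and -0.027, with 0.054 in TE. Rescaled, they were -0.0071 in RNA, -0.030 in Ribo-Seq and 0.047 in TE at RAS day 5, 0.064, 0.027 and 0.0065 at RAS day 14, and -0.0024 in RNA in the library labelled transformed. Centred on all genes, they were 0.042, -0.11 and -0.086 at RAS day 5, 0.095 in Ribo-Seq at RAS day 14, and -0.052 in RNA in the library labelled transformed. Without NACA and EEF1D, they were 0.19 in RNA in quiescence, -0.083 in Ribo-Seq at RAS day 5, 0.040 in Ribo-Seq at RAS day 14 and -0.026 in RNA in the library labelled transformed. With the Ribo-Seq pair of run 2 assigned by description, the RAS day 14 Ribo-Seq median was 0.0080. This is 1 of the 14 sign changes, and the exchange fixed it in advance. Of 360 single values of members, 44 moved by more than the spread between the proliferating columns (SD per library 0.438 in RNA, 0.591 in Ribo-Seq and 0.443 in TE), all with the other control. Exchanging the control shifts a value by that gene's gap between the proliferating columns, by the same size in every condition. These 44 therefore repeat the gaps and are no separate check. Centring shifted all genes alike by less than this spread, so it could not move any value past it. In quiescence, members lower in TE by 2-fold numbered 3, and 9 at 1.5-fold, 1 after centring and 1 at 2 local SDs, which 3.51% of all genes passed. In Ribo-Seq they numbered 2, and 7 at 1.5-fold, 0 at 2 local SDs, which 1.84% of all genes passed, and 1 with the other control, against 11.1%. Counts of 0 became 1 at 1.5-fold for TE at RAS day 5 and for RNA in the library labelled transformed. With the other control they became 2 for lower Ribo-Seq and 1 for lower TE at RAS day 14, against 22.9% and 9.18% of all genes, and 1 for lower Ribo-Seq and 1 for higher TE in the library labelled transformed, against 10.4% and 6.17%. Among the 5254 genes with a mean of at least 10 FPKM, 2.44% were 2-fold lower in TE in quiescence.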

Other observations

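Outside the 10 mRNAs and the ribosomal proteins, genes with a pyrimidine tract at the annotated start had TE changes near those of genes without one. Among 584 other genes with a tract, the median TE change in quiescence was -0.08, and among 7407 other genes without one it was -0.05. For tracts of 8 or more bases, found in 216 of these genes, it was -0.04. Ribosomal protein genes had a median of -1.11 both with a tract at the annotated start (47 genes) and without one (16 genes), and 59 of the 63 held a tract somewhere in the 30-base window, as did 46.2% of the other genes. Annotated starts of current RefSeq transcripts need not be those used in BJ cells, and the difference was not tested.

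Fibroblast markers had the opposite direction to the 10 mRNAs in quiescence. Their median TE change was 0.54, from -0.03 for LUM to 1.23 for COL1A1, with 1 of 10 lower, against 54.3% of all genes. Between the proliferating columns, run 2 minus run 1, the same markers had a median TE difference of 0.52. In that gap 9 of 10 were higher, as were 5007 of all 9699 genes. The difference in quiescence was thus about as large as the gap with no change of condition. Their median TE change was 0.53 at RAS day 5 and 0.34 at RAS day 14. In the library labelled transformed it was -0.30, with 9 of 10 lower, against 57.1% of all genes.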
